A study of Mus musculus with 6 samples.

Results

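A set of 10 genes of the switch from G1 to S phase was followed in fully grown mouse oocytes that lacked Ring1 and Rnf2. They were the Ink4 inhibitors Cdkn2a, Cdkn2b, Cdkn2c and Cdkn2d, the Cip/Kip inhibitors Cdkn1a and Cdkn1b, the kinase gene Cdk6, the D cyclins Ccnd1 and Ccnd2 and the E cyclin Ccne1. They were taken by symbol from the deposited table, and all 10 were found among its 24028 genes. Cdkn1c, the remaining Cip/Kip inhibitor, was not part of the set.

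In dividing cells, D cyclins bind CDK4 or CDK6 and cyclin E binds CDK2. These kinases phosphorylate the retinoblastoma protein, which frees E2F factors to turn on genes of DNA replication. Ink4 proteins block CDK4 and CDK6, while Cip/Kip proteins bind cyclin-CDK complexes more broadly. Cdkn2a encodes the inhibitor Ink4a and, from another first exon and reading frame, Arf, which stabilises p53. Its repression by Polycomb complexes is a classic example of Polycomb control in fibroblasts and stem cells. Fully grown oocytes do not divide by this route: they rest in meiotic prophase and use CDK1 with B cyclins to resume meiosis.

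Ring1 and Rnf2 encode the E3 ligases at the core of Polycomb repressive complex 1 (PRC1). The dKO group held 3 libraries from Ring1 -/-; Rnf2 f/f; Zp3-cre females, and the control group 3 from Ring1 -/-; Rnf2 f/f females, so all oocytes lacked Ring1. Strain background was mixed (FVB, 129/Sv and C57BL/6J), and the females were about 3 months old. Each library held RNA pooled from 15 germinal vesicle oocytes of 1 female, so the replicates were separate animals. Zp3-cre is driven by an oocyte promoter. No group carried it without floxed Rnf2, so the transgene and the loss of Rnf2 cannot be told apart.

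Values are FPKM (read fragments per length of transcript and per mapped total of a library), which allow levels to be compared between genes. The table keeps no absolute depth. Relative depth, read from low values, was 0.66, 0.807 and 1.09 of control replicate 1 in dKO replicates 1 to 3, against 0.901 and 1.02 in control replicates 2 and 3. Low values are therefore least precise in dKO replicate 1. Rnf2 stood at 14.8, 8.44 and 5.31 FPKM in dKO oocytes, against 53.7, 46.8 and 48.2 FPKM in control oocytes, which follows the labels (change -2.37 ± 0.30, SE, on the log2(FPKM + 1) scale; limma adjusted p = 0.000696). Ring1 did not exceed 0.24 FPKM in dKO oocytes or 0.0973 FPKM in control oocytes. The index sequence used in the library differed between the groups and cannot be told apart from them. All 10 oocyte markers examined were expressed, with sums of 4840 to 6745 FPKM in dKO libraries and 7966 to 8200 FPKM in control libraries. The same number of oocytes was pooled for every library, and FPKM are relative to its mapped total. These sums therefore do not give the amount of RNA per oocyte.

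Ccne1, Cdk6 and Cdkn1a rose in dKO oocytes, with group means 3.95, 3.68 and 2.4 times those of control oocytes. Cdkn2a was almost silent in control oocytes and averaged just under 1 FPKM in dKO oocytes. Cdkn2b, Cdkn2c and both D cyclins had higher dKO means, and Cdkn1b and Cdkn2d had lower dKO means. Of these, Cdkn2c, Ccnd2 and Cdkn1b did not pass the test. Cdkn2b, Cdkn2d and Ccnd1 were too low for the test and did not pass in a fit without a filter. No member fell. Of the 10 members 6 were tested, namely Cdkn2c, Cdkn1a, Cdkn1b, Cdk6, Ccnd2 and Ccne1, which reached 1 FPKM in at least 3 libraries. Of these 3 were called higher and 0 lower by limma at a Benjamini-Hochberg adjusted p under 0.05. At an unadjusted p under 0.05 it was 4 higher and 0 lower. Over all 11334 tested genes 14.0% were called higher and 7.04% lower. These were 1587 and 798 genes, against 1191 and 1073 after quantile normalization and 1452 and 1572 with each library centred on its mean.

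The 4 members under the filter were Cdkn2a, Cdkn2b, Cdkn2d and Ccnd1. The filter favours genes that are high in at least 1 group, so the share called among tested members is a description only. In a fit without a filter, over 20310 genes, 3 of the 10 members were called higher (Ccne1, Cdk6 and Cdkn2a) and 0 lower, against 9.88% and 2.68% of all genes. At 7 of the 10 members every dKO library lay above every control library, and at none did every dKO library lie below. Among the 6 tested members it was 4, and over all tested genes 22.3%.

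**Figure D1:**
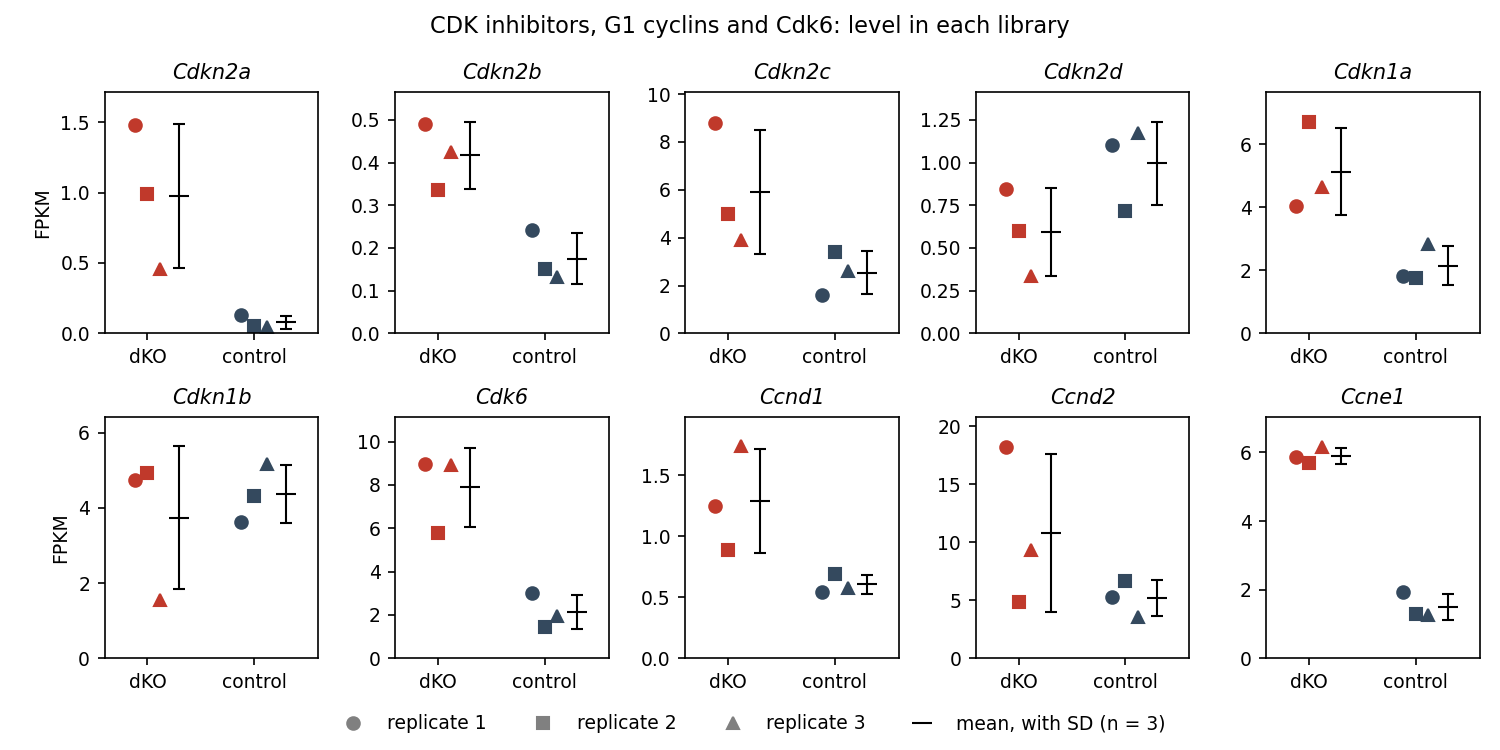
Level of each gene in FPKM (vertical axes, each starting at 0 with its own scale) in the 3 dKO libraries (red) and the 3 control libraries (dark blue); symbols mark the replicate, and bars the mean and SD. The groups are apart for Cdkn2a, Cdkn2b, Cdkn2c, Cdkn1a, Cdk6, Ccnd1 and Ccne1 and overlap for Cdkn2d, Cdkn1b and Ccnd2.

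The summed level of the 10 members was 54.7, 35.8 and 37.4 FPKM in dKO replicates 1 to 3, against 19.3, 20.5 and 19.3 FPKM in control replicates 1 to 3. Replicate 1 held the highest dKO value of 6 members, and replicates 2 and 3 that of 2 each. By mean level in dKO oocytes the order was Ccnd2, Cdk6, Ccne1, Cdkn2c, Cdkn1a, Cdkn1b, Ccnd1, Cdkn2a, Cdkn2d and Cdkn2b, and the libraries of each neighbouring pair overlapped. In control oocytes the order was Ccnd2, Cdkn1b, Cdkn2c, Cdk6, Cdkn1a, Ccne1, Cdkn2d, Ccnd1, Cdkn2b and Cdkn2a. There the libraries of neighbours were apart between Cdkn1b and Cdkn2c and at each step from Ccne1 to Cdkn2b, and the other neighbours overlapped.

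Cdkn2a had 1.48, 0.992 and 0.459 FPKM in dKO replicates 1 to 3, against 0.133, 0.0551 and 0.0488 FPKM in control replicates 1 to 3. All dKO libraries lay above all controls, and dKO replicate 3 was the lowest of them. The mean was 0.976 ± 0.509 FPKM in dKO oocytes and 0.079 ± 0.0469 FPKM in control oocytes (SD, n = 3 each), a ratio of 12.4. Ranked over all 24028 genes, the mean stood at percentile 51.3 in dKO oocytes and 38.6 in control oocytes, so the gene stayed low in both.

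In the fit without a filter the change of Cdkn2a was 0.84 ± 0.19 on the log2(FPKM + 1) scale (SE; limma adjusted p = 0.0439). That scale understates changes of low genes: with a pseudocount of 0.1 the change was 2.49 (limma adjusted p = 0.0203). The call ended when the replicate number, which marks a shared sequencing lane, entered the fit as a block (limma adjusted p = 0.0635), and after quantile normalization (0.0717). It also ended without dKO replicate 1 or 2 (0.0584 and 0.0878) and without control replicate 1, 2 or 3 (0.124, 0.146 and 0.148). Ink4a and Arf share a row of the table and cannot be separated.

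The RefSeq annotation gives Cdkn2a a pair of starts, whose upstream sequences are shown because Polycomb complexes are known to gather at sequences rich in CG dinucleotides. Capitals mark each CG in the 250 bases before the start, on build GRCm38.p6, strand minus. The start nearer to Cdkn2b is that of Arf and the other that of Ink4a.
Cdkn2a, start of Arf, chr4:89294620-89294869: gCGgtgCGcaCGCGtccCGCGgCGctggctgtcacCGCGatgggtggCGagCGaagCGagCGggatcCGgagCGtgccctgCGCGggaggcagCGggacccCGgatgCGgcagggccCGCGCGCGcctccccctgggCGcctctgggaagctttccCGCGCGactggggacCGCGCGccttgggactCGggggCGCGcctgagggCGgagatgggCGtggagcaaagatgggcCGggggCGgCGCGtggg
Cdkn2a, start of Ink4a, chr4:89282193-89282442: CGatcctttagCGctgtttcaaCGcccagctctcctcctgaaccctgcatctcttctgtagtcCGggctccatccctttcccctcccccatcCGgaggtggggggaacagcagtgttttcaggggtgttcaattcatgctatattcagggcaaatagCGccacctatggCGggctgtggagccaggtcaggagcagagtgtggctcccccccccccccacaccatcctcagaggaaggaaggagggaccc
The stretch before the Arf start held 40 CG dinucleotides, above 98.7% of the 32851 annotated starts, whose median was 6. The stretch before the Ink4a start held 7, above 53.7% of them.

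Cdkn2b, the neighbour of Cdkn2a and also an inhibitor of CDK4 and CDK6, was at 0.491, 0.336 and 0.424 FPKM in dKO oocytes, against 0.243, 0.15 and 0.133 FPKM in control oocytes. No library reached 0.5 FPKM, although the groups did not overlap. In the fit without a filter its change was 0.27 ± 0.07 (SE, log2 scale; limma adjusted p = 0.0508). The call was gained without dKO replicate 2 (limma adjusted p = 0.0427), and the change shrank to 0.01 after quantile normalization (0.912). On the far side of Cdkn2a lies Mtap, which encodes an enzyme of methionine salvage and was named after its values were seen. It had 22.6, 19.5 and 19.8 FPKM in dKO oocytes, against 11.8, 12.9 and 13.6 FPKM in control oocytes, with a change of 0.65 ± 0.16 (SE, log2 scale; limma adjusted p = 0.0201). The call of Mtap ended without dKO replicate 1 (limma adjusted p = 0.0559) and without control replicate 1, 2 or 3 (0.104, 0.0882 and 0.0694). Dmrta1, the next gene beyond Cdkn2b, was listed at 0 in every control library and reached at most 0.088 FPKM in dKO oocytes. Of the 18 other genes that flank the members on either side, 10 were tested, and Mtap was the 1 called, against 14.0% of all tested genes called higher. With no filter 3 of 17 were called, all higher, against 9.88% of all genes. Beside Mtap these were Rab44, next to Cdkn1a (0.172 ± 0.0238 FPKM in dKO oocytes and 0.0473 ± 0.0242 FPKM in control oocytes; SD, n = 3 each; limma adjusted p = 0.0271), and 1600014C10Rik, next to Ccne1. 1600014C10Rik had 1.21, 0.91 and 0.797 FPKM in dKO oocytes, against 0.23, 0.254 and 0.343 FPKM in control oocytes (change 0.62; limma adjusted p = 0.02).

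Cdkn2c, the Ink4 inhibitor known in mice for its role in the testis and the pituitary, was the most abundant of the 4 Ink4 genes in both groups. It had 8.81, 5.01 and 3.89 FPKM in dKO oocytes, against 1.61, 3.4 and 2.61 FPKM in control oocytes. The groups did not overlap, but dKO replicate 1 stood far above replicate 3. The change was 0.93 ± 0.31 (SE, log2 scale) and missed the threshold (limma adjusted p = 0.062). It passed without dKO replicate 3 (change 1.15; limma adjusted p = 0.0436). Cdkn2d had 0.844, 0.6 and 0.334 FPKM in dKO oocytes, against 1.1, 0.718 and 1.17 FPKM in control oocytes, with overlap at control replicate 2. In the fit without a filter its change was -0.33 ± 0.17 (SE, log2 scale; limma adjusted p = 0.265). It passed, downward, after quantile normalization (change -0.67; limma adjusted p = 0.0459).

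Cdkn1a, the inhibitor best known as a target of p53, had 4.05, 6.7 and 4.63 FPKM in dKO oocytes, against 1.81, 1.75 and 2.85 FPKM in control oocytes. Each dKO library lay above each control. The mean was 5.13 ± 1.39 FPKM in dKO oocytes and 2.14 ± 0.616 FPKM in control oocytes (SD, n = 3 each), and the change was 0.96 ± 0.24 (SE, log2 scale; limma adjusted p = 0.0227). The call ended without dKO replicate 2 (limma adjusted p = 0.0565), without control replicate 1 or 2 (0.0953 and 0.101), with no filter (0.0614) and after quantile normalization (0.0667).

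Cdkn1a also has a pair of annotated starts. They are shown because a p53-type motif, CATG followed by 6 bases of any kind and CATG again, lies before the distal one. In the distal sequence capitals mark the 20 bases centred on that motif. In the proximal one they mark each CG. Both lie on strand plus of GRCm38.p6.
Cdkn1a, distal start, chr17:29090729-29090978: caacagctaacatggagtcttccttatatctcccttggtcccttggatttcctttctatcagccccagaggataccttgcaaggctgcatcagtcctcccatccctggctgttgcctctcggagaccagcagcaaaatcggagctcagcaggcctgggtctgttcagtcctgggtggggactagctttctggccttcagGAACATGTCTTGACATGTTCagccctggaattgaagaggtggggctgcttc
Cdkn1a, proximal start, chr17:29093519-29093768: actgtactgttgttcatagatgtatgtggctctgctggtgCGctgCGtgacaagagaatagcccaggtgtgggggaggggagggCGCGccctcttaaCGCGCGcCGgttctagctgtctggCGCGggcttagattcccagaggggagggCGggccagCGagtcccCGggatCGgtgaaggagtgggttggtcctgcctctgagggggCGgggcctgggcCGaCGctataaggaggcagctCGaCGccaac
This motif reads the same on both strands and occurred before 0.49% of all annotated starts and before no other start of a member. The 250 bases before the distal start held 2 CG dinucleotides, and those before the proximal start 19.

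Cdkn1b, the inhibitor that holds resting cells out of the cycle, had 4.75, 4.92 and 1.55 FPKM in dKO oocytes, against 3.62, 4.33 and 5.17 FPKM in control oocytes. Replicate 3 stood apart from the other dKO libraries, which lay among the controls. The change was -0.27 ± 0.33 (SE, log2 scale; limma adjusted p = 0.597), and without dKO replicate 3 it was 0.13 (0.685). In control oocytes Cdkn1b was the most abundant inhibitor, at 4.38 ± 0.775 FPKM, ahead of Cdkn2c at 2.54 ± 0.897 FPKM, and their libraries did not overlap. In dKO oocytes Cdkn2c (5.9 ± 2.58 FPKM), Cdkn1a (5.13 ± 1.39 FPKM) and Cdkn1b (3.74 ± 1.9 FPKM; SD, n = 3 each) did overlap.

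Cdk6, the kinase partner of D cyclins, had 8.97, 5.78 and 8.92 FPKM in dKO oocytes, against 3.01, 1.46 and 1.96 FPKM in control oocytes. The lowest dKO library stood well above the highest control. The mean was 7.89 ± 1.83 FPKM in dKO oocytes and 2.14 ± 0.79 FPKM in control oocytes (SD, n = 3 each), and the change was 1.51 ± 0.26 (SE, log2 scale; limma adjusted p = 0.00376). The call held in all 19 alternatives, with limma adjusted p of 0.00122 to 0.0263. Cdk4, the related kinase, had 6.05, 9.37 and 2.24 FPKM in dKO oocytes, against 5.13, 3.12 and 4.69 FPKM in control oocytes, and did not pass (limma adjusted p = 0.699).

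The genes with a pattern most like that of Cdk6 were Ak7, an adenylate kinase gene, Ube2r2, a ubiquitin-conjugating enzyme gene, and Mcemp1. Likeness was the root-mean-square difference over the 6 libraries of log2(FPKM + 1) after each gene's mean was subtracted, and it was 0.10, 0.16 and 0.17. Ak7 had 5.07, 3.11 and 4.26 FPKM in dKO oocytes, against 1.1, 0.53 and 0.688 FPKM in control oocytes, with replicate 2 lowest in both groups as for Cdk6.

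Ccne1, the E cyclin that activates CDK2, had 5.86, 5.7 and 6.15 FPKM in dKO oocytes, against 1.93, 1.3 and 1.26 FPKM in control oocytes. The dKO libraries were within a factor of 1.08 of each other, the narrowest spread among the 10 members, and all lay above the controls. The change was 1.48 ± 0.20 (SE, log2 scale; limma adjusted p = 0.000985), and the call held in all 19 alternatives, with limma adjusted p of 0.000615 to 0.0089. Ccne2, the other E cyclin, had 28.5, 13.6 and 6.96 FPKM in dKO oocytes, against 11.3, 10.2 and 8.44 FPKM in control oocytes. Its libraries overlapped, and its change did not pass (limma adjusted p = 0.446).

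The sequences before the starts of Ccne1 and Cdk6, the genes with the firmest calls, are shown with each CG in capitals (GRCm38.p6; Ccne1 strand minus, Cdk6 strand plus).
Ccne1, chr7:38107491-38107740: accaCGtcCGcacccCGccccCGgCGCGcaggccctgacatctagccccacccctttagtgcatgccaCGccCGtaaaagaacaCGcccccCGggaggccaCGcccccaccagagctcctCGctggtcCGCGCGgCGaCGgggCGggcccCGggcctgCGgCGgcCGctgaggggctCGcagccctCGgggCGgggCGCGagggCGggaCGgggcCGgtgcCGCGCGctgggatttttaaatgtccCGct
Cdk6, chr5:3343643-3343892: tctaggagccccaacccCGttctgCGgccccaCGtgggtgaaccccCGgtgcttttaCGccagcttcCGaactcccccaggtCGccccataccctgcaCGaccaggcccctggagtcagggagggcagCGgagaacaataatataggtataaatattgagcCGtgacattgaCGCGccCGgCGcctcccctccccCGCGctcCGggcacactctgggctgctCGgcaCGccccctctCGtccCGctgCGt
They held 34 and 22 CG dinucleotides, above 96.5% and 85.2% of all annotated starts. The letters TTTNNCGC, an E2F-type motif searched on both strands, occurred once before the start of Cdk6 and once before each start of Cdkn2a, and before 4.28% of all starts. The letters CACGTG, an E-box, occurred once before Cdk6 and before 6.02% of all starts. Both motifs hold a CG, so they are not independent of the CG count.

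**Figure D2:**
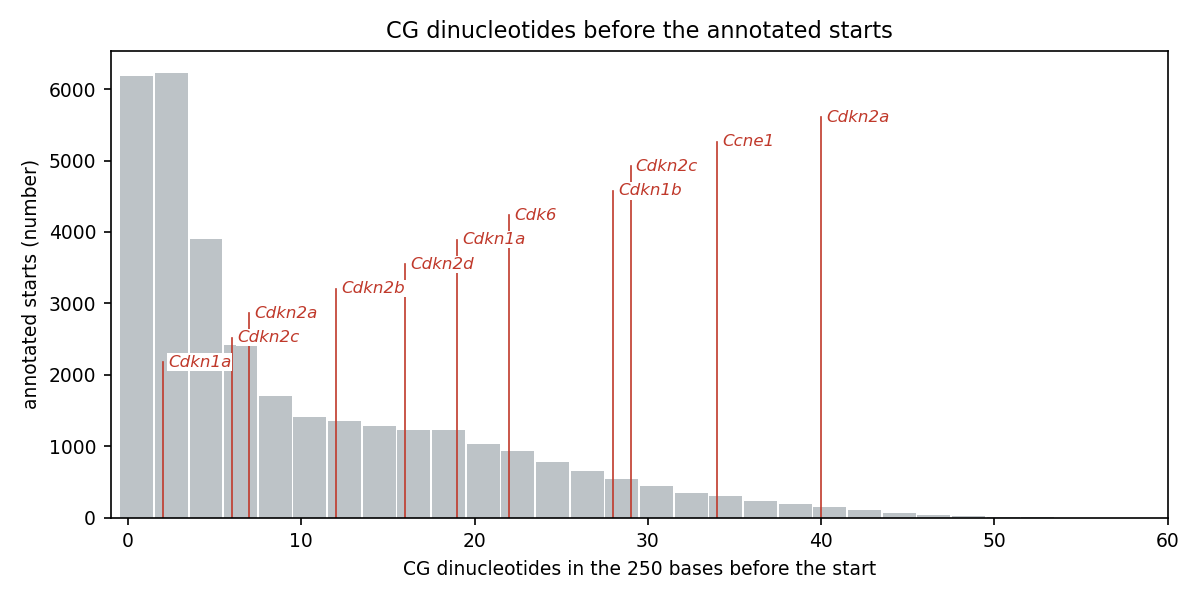
Number of annotated mouse starts (grey bars, vertical axis) by their count of CG dinucleotides in the 250 bases before the start (horizontal axis), with the 11 starts of 8 members as red lines whose heights only separate the labels. The Arf start of Cdkn2a (40) and the start of Ccne1 (34) lie in the upper tail, and the distal start of Cdkn1a (2) lies at the low end.

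The 8 members found in the RefSeq table of starts were Cdkn2a, Cdkn2b, Cdkn2c, Cdkn2d, Cdkn1a, Cdkn1b, Cdk6 and Ccne1. Among the tested members that were called, the starts held 34 CG (Ccne1), 22 (Cdk6) and 2 and 19 (Cdkn1a). Of those that did not pass, Cdkn1b held 28 and the starts of Cdkn2c held 6 and 29. The change of Cdkn2c was close to that of Cdkn1a, at 0.93 and 0.96 (log2 scale), so the call parts them poorly. Whether the count of CG goes with the change was not tested.

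The D cyclins link growth signals to CDK4 and CDK6. Ccnd1 had 1.25, 0.89 and 1.74 FPKM in dKO oocytes, against 0.546, 0.694 and 0.579 FPKM in control oocytes. The groups did not overlap, and without a filter the change was 0.50 ± 0.17 (SE, log2 scale; limma adjusted p = 0.124). Ccnd2, the D cyclin that follicle-stimulating hormone induces in granulosa cells, had the highest mean of the members in both groups, though its range overlapped that of the next, Cdk6 in dKO oocytes and Cdkn1b in control oocytes. It had 18.2, 4.86 and 9.29 FPKM in dKO oocytes, against 5.29, 6.66 and 3.56 FPKM in control oocytes. The highest dKO library was 3.75 times the lowest, the widest spread among the members, and replicate 2 lay within the control range. The change was 0.80 ± 0.40 (SE, log2 scale; limma adjusted p = 0.191), and it passed without dKO replicate 2 (change 1.22; 0.0455). Ccnd3, the remaining D cyclin, had 2.37, 4.63 and 1.99 FPKM in dKO oocytes, against 5.59, 4.2 and 3.76 FPKM in control oocytes, and did not pass (limma adjusted p = 0.225).

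Of 14 granulosa and cumulus markers, 7 were tested, of which limma called 3 higher and 0 lower (3 and 1 at an unadjusted p under 0.05). Over all tested genes 14.0% were higher. With no filter it was 4 of 14 higher and 0 lower, against 9.88% and 2.68% of all genes. The sum of the 14 was 72.5 to 74.5 FPKM in dKO libraries and 47.9 to 53.8 FPKM in control libraries. Fshr, the receptor for follicle-stimulating hormone, had 11.6, 11.1 and 9.24 FPKM in dKO oocytes, against 0.179, 0.149 and 0.146 FPKM in control oocytes. Wt1 and Nr5a2 were the other 2, with changes of 1.02 and 0.60 (log2 scale). Fshr and Wt1 passed the filter through the dKO libraries alone. Without dKO replicate 1, 2 or 3 neither was tested, and the count was 0 of 4, 1 of 4 and 0 of 5 tested. With no filter both kept their calls in each of these removals (limma adjusted p up to 0.0154). Cyp19a1, the aromatase gene of granulosa cells, went the other way and was named after its values were seen. It had 5.23, 6.19 and 5.93 FPKM in dKO oocytes, against 11.3, 7.6 and 10.9 FPKM in control oocytes, every dKO library below every control. Its change of -0.67 lay at the threshold (limma adjusted p = 0.05), and it passed with mean centring (0.0228), after quantile normalization (0.0318), without a variance trend (0.0414), with median-ratio scaling (0.0455), with a filter of 0.5 FPKM (0.0482) and with a pseudocount of 0.1 (0.0498). Nr5a2 and Esr2 were the most abundant, and Esr2 (24.1 ± 0.727 FPKM in dKO oocytes and 19.6 ± 3.08 FPKM in control oocytes; SD, n = 3 each) did not pass. Wt1 lost its call after quantile normalization (limma adjusted p = 0.155), and Nr5a2 on removal of dKO replicate 1 or 3 or any 1 control (up to 0.153) and with each library centred on its mean (0.0591). The defining granulosa marker Foxl2 was at 0.378, 0.586 and 0.0769 FPKM in dKO oocytes, against 0.0972, 0 and 0.0817 FPKM in control oocytes. Amhr2 did not exceed 0.0558 FPKM in dKO oocytes or 0.0817 FPKM in control oocytes. No marker of this list was at 0 in every library, and 5 were under 1 FPKM in every library. Most of the sum came from Nr5a2 and Esr2. The part of granulosa RNA in the levels of the members was not tested.

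Of 12 theca and stroma markers, 10 were under 1 FPKM in every library, and their sum was 6.64 to 10.8 FPKM in dKO libraries and 1.36 to 2.01 FPKM in control libraries. Nr2f2 was the 1 tested, since it passed the filter through the dKO libraries alone, and it rose, with 6.84, 3.57 and 3.49 FPKM in dKO oocytes, against 0.545, 0.506 and 0.511 FPKM in control oocytes. With no filter 4 of the 12 were called higher and 0 lower, against 9.88% and 2.68% of all genes. The 4 were Nr2f2, Dcn, Col1a1 and Pdgfra (limma adjusted p = 0.0119, 0.0142, 0.00644 and 0.00407). With a filter of 0.5 FPKM 3 of 3 tested were higher, against 1990 of 12741 genes. Dcn, the other most abundant of the 12, had 1.41 ± 0.4 FPKM in dKO oocytes and 0.207 ± 0.0682 FPKM in control oocytes (SD, n = 3 each). Of 8 immune, endothelial and red cell markers measured, Hbb-b1 was at 0 in every library. Only 2 were tested, with 0 higher and 1 lower, against 14.0% and 7.04% of all tested genes. Pecam1, which encodes an adhesion protein of endothelium, fell (14.9 ± 2.57 FPKM in dKO oocytes and 25.2 ± 4.11 FPKM in control oocytes; SD, n = 3 each). Its call ended on removal of dKO replicate 1 or 3 or control replicate 1 or 3 (limma adjusted p up to 0.13), with no filter (0.0505) and with array weights (0.0766). Kdr and Cdh5, also endothelial markers, were under the filter and did not follow Pecam1. Kdr had 1.74, 1.89 and 0.736 FPKM in dKO oocytes, against 0.552, 0.394 and 0.325 FPKM in control oocytes. The groups did not overlap, but Kdr did not pass with no filter (limma adjusted p = 0.0879). Cdh5 did not exceed 0.0317 FPKM in any library. Both were named after their values were seen. The sum of all 8 markers was 14.4 to 21.2 FPKM in dKO libraries and 22.1 to 29.5 FPKM in control libraries. Cd68 was at 1.75 ± 1.49 FPKM in dKO oocytes and 1.22 ± 0.767 FPKM in control oocytes (SD, n = 3 each) and did not pass. Of the 10 oocyte markers limma called 0 higher and 1 lower, against 14.0% and 7.04% of all tested genes. At an unadjusted limma p under 0.05 it was 0 and 5. The median log2 change of the 10 was -0.52, and no change was positive. At 5 of them every dKO library lay below every control, against 19.2% of all tested genes. The marker called was Bmp15 (593 ± 70.8 FPKM in dKO oocytes and 904 ± 8.67 FPKM in control oocytes, SD, n = 3 each). Gdf9 (1756 ± 567 FPKM in dKO oocytes and 2436 ± 242 FPKM in control oocytes) and Zp3 (918 ± 273 FPKM in dKO oocytes and 1437 ± 65.6 FPKM in control oocytes; SD, n = 3 each) did not pass. The lower count was 4 with each library centred on its mean, 3 without dKO replicate 2 and 2 without dKO replicate 3. Zp3 passed with mean centring (limma adjusted p = 0.0295) and without dKO replicate 2 (0.0174).

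**Figure D3:**
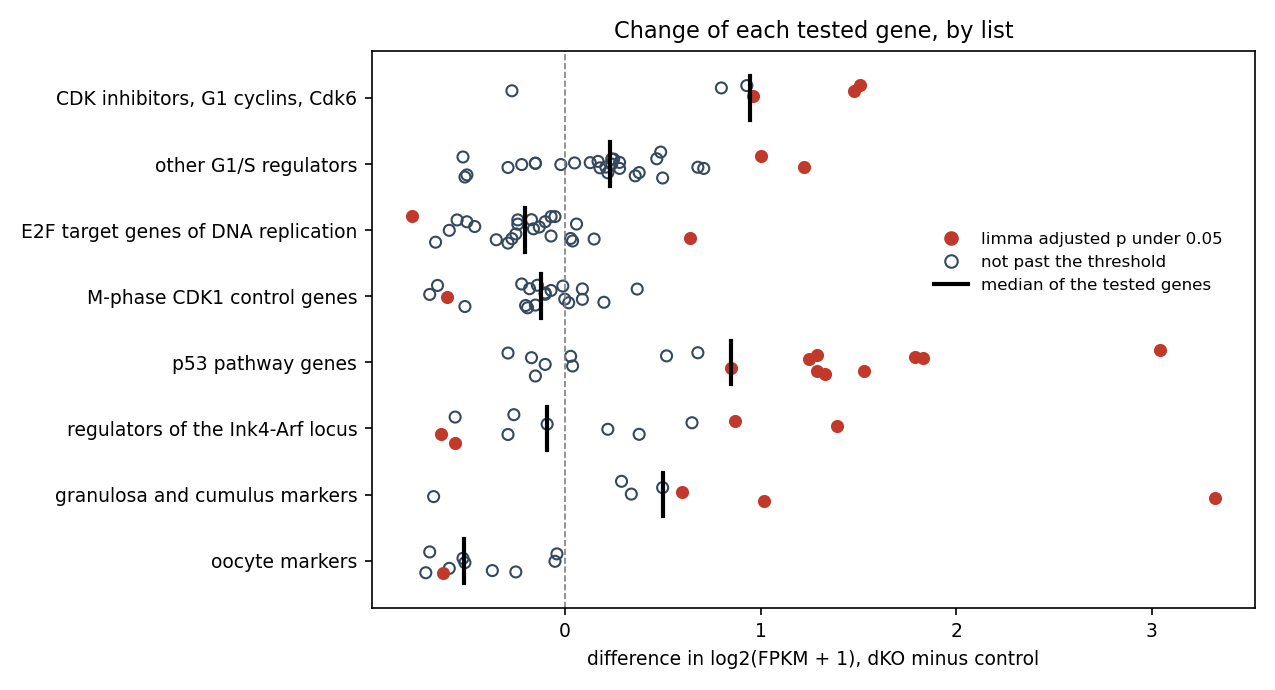
Difference in log2(FPKM + 1), dKO minus control (horizontal axis), of every tested gene of 8 lists; filled red points passed the limma threshold, open points did not, and black bars are medians. Medians are 0.95 for the CDK inhibitors, G1 cyclins and Cdk6, 0.85 for p53 pathway genes, 0.23 for other G1/S regulators and -0.20 for E2F target genes.

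Few other regulators of G1 and S phase passed the test. Of 31 such genes 28 were tested, with 2 higher, 0 lower and a median log2 change of 0.23, against -0.02 over all tested genes. At an unadjusted limma p under 0.05 it was 6 higher and 1 lower. Over all tested genes 14.0% were called higher and 7.04% lower. At 12 of the 28 every dKO library lay above every control and at 3 below, against 22.3% and 19.2% of all tested genes. The genes called were Ccnh, which encodes the cyclin of the CDK-activating kinase, and E2f8, a repressor of the E2F family. Ccnh had 18.5, 15 and 22.2 FPKM in dKO oocytes, against 7.3, 6.97 and 7.71 FPKM in control oocytes, with no overlap (change 1.22; limma adjusted p = 0.0023). E2f8 had 6.08, 7.97 and 10.5 FPKM in dKO oocytes, against 3.73, 4.06 and 2.84 FPKM in control oocytes. The ratio of means was 2.31 (limma adjusted p = 0.0182), and the call ended without control replicate 1 or 3 (0.0591 and 0.0846). With no filter 3 of 31 were called higher and 0 lower, against 9.88% and 2.68% of all genes. E2f3, at most 0.545 FPKM, was then also called (limma adjusted p = 0.0489). Ccna1 was listed at 0 in every control library and had 1.11, 0.587 and 2.7 FPKM in dKO oocytes. It did not pass with no filter (limma adjusted p = 0.0553). E2f3 and Ccna1 were named after their values were seen.

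E2F target genes of DNA replication, which encode helicase subunits, origin factors and enzymes of nucleotide synthesis, had a median below that of all tested genes. All 24 were tested, with 1 higher and 1 lower, against 14.0% and 7.04% of all tested genes. The median log2 change was -0.20, with 1 higher and 4 lower at an unadjusted limma p under 0.05. With each library centred on its mean it was 0 higher and 4 lower, and without dKO replicate 2 it was 1 higher and 3 lower. Cdc6, which loads the replicative helicase, had 7.6, 7.97 and 4.66 FPKM in dKO oocytes, against 12, 11.8 and 12.2 FPKM in control oocytes (change -0.78; limma adjusted p = 0.0356). Fen1, a nuclease of DNA replication and repair, had 9.51, 9.49 and 11.8 FPKM in dKO oocytes, against 5.78, 5.86 and 6.95 FPKM in control oocytes (change 0.64; limma adjusted p = 0.0409). Both calls were close to the threshold. That of Cdc6 ended with no filter (limma adjusted p = 0.0607) and without dKO replicate 1 or any 1 control (up to 0.122). That of Fen1 ended with the block (0.0507), with array weights (0.0517), after quantile normalization (0.0877), with libraries centred on their means (0.0764), and without any 1 library except dKO replicate 2 (up to 0.16).

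Genes that control CDK1 at M phase, the kinase that oocytes use to resume meiosis, held 1 call. All 20 were tested, with 0 higher and 1 lower, against 14.0% and 7.04% of all tested genes. The median log2 change was -0.12, with 1 higher and 3 lower at an unadjusted limma p under 0.05. The lower count was 3 with each library centred on its mean and 3 without dKO replicate 2. The gene that fell was Wee2, the oocyte kinase that keeps CDK1 inactive, with 183, 253 and 222 FPKM in dKO oocytes, against 319, 317 and 356 FPKM in control oocytes (change -0.60; limma adjusted p = 0.0384). Its call ended with the block (limma adjusted p = 0.0545), with no filter (0.0705), after quantile normalization (0.191), and without dKO replicate 1 or any 1 control (up to 0.163).

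Many genes of the p53 pathway, of which Cdkn1a is a classic target, rose. Of 22 genes, Cdkn1a not among them, 17 were tested, with 9 higher, 0 lower and a median log2 change of 0.85 (11 higher and 0 lower at an unadjusted limma p under 0.05). Over all tested genes 14.0% were higher. Pmaip1, Plk2 and Sesn1 passed the filter through the dKO libraries alone, so the share of 9 of 17 and the median are descriptions only. With no filter it was 8 of 22, with a median of 0.57. Sesn1 and Sesn2 were then not called (limma adjusted p = 0.0691 and 0.0737), and Fas, otherwise under the filter, was called higher (0.0395). Over all genes 9.88% were higher in that fit. The count was 5 of 14 tested without dKO replicate 2 and 4 of 10 with the filter at 5 FPKM. With the block it was again 9.

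Pmaip1, which encodes the death-promoting protein Noxa, had 12.3, 7.96 and 4.74 FPKM in dKO oocytes, against 0.158, 0.0581 and 0.0129 FPKM in control oocytes (change 3.04 ± 0.29, SE; limma adjusted p = 0.000175). Perp, which encodes a membrane protein of cell adhesion and death, had 7.66, 6.17 and 6.37 FPKM in dKO oocytes, against 1.19, 0.945 and 1.39 FPKM in control oocytes (change 1.83 ± 0.20; limma adjusted p = 0.000311). Plk2, a stress-induced kinase gene, had 5.38, 4.58 and 1.93 FPKM in dKO oocytes, against 0.495, 0.315 and 0.279 FPKM in control oocytes (change 1.79 ± 0.29; limma adjusted p = 0.00266). The call of Perp held in all 19 alternatives. Those of Pmaip1 and Plk2 held in the 15 that tested them, and with no filter also without dKO replicate 1, 2 or 3 (limma adjusted p up to 0.0154 for Pmaip1 and 0.0484 for Plk2). The other 6 that rose were Gadd45a, Ccng1, Btg2, Zmat3, Sesn1 and Sesn2, genes of growth arrest and stress, with changes of 0.85 to 1.53.

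The p53 gene itself, Trp53, did not differ beyond the spread of its libraries, with 20.7 ± 3.66 FPKM in dKO oocytes and 23 ± 2.48 FPKM in control oocytes (SD, n = 3 each; limma adjusted p = 0.579). Mdm2, its ubiquitin ligase and also its target, had 114 ± 11.2 FPKM in dKO oocytes and 111 ± 3.19 FPKM in control oocytes (SD, n = 3 each; limma adjusted p = 0.891). Bax, a further known target, had 1.96 ± 0.626 FPKM in dKO oocytes and 2.29 ± 0.407 FPKM in control oocytes (SD, n = 3 each; limma adjusted p = 0.624). Bbc3 was listed at 0 in every library but 1, dKO replicate 1, at 0.0549 FPKM. These 4 were named after their values were seen.

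**Figure D4:**
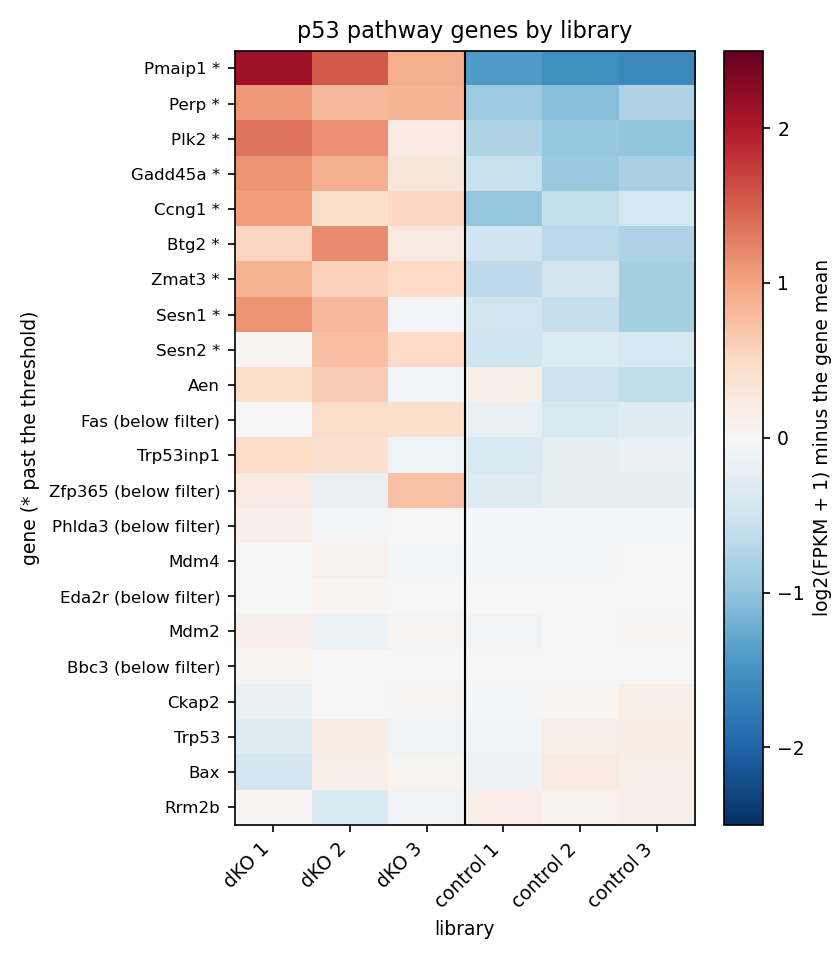
Log2(FPKM + 1) minus the mean of each gene (colour) for 22 p53 pathway genes (rows) in the 3 dKO and the 3 control libraries (columns); asterisks mark the 9 genes past the limma threshold. The upper rows are red in dKO and blue in control libraries, and Mdm2 and Mdm4 are near white in all 6.

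Genes known to regulate the Ink4-Arf locus went both ways. Of 17 genes 11 were tested, with 2 higher, 2 lower and a median log2 change of -0.09. Over all tested genes 14.0% were called higher and 7.04% lower. With no filter, the fit in which Cdkn2a was called, it was 4 higher and 1 lower of 17, with a median of 0.22. Over all genes 9.88% were higher and 2.68% lower in that fit. Ets1, which encodes an activator of Ink4a, was under the filter and had 1.49, 1.22 and 0.893 FPKM in dKO oocytes, against 0.175, 0.0232 and 0.0686 FPKM in control oocytes (change 1.01; limma adjusted p = 0.00731 with no filter). Twist1, a repressor of the locus, was listed at 0 in every control library and reached 0.546 FPKM in dKO oocytes (limma adjusted p = 0.0338 with no filter). Ets2, also on the list, was lower in dKO oocytes, at 13.8, 16.8 and 8.46 FPKM, against 17.3, 17.9 and 22.1 FPKM in control oocytes. Every dKO library of Ets2 lay below every control, but its change of -0.56 did not pass (limma adjusted p = 0.139). Ets1, Ets2 and Twist1 were named after their values were seen. Id1, which encodes a repressor of Ink4a transcription, had 2.8, 2.19 and 1.95 FPKM in dKO oocytes, against 0.0881, 0.39 and 0.302 FPKM in control oocytes (change 1.39; limma adjusted p = 0.000958). It too passed the filter through the dKO libraries alone. Tbx3, which encodes a repressor of Arf, had 3.75, 4.49 and 4.83 FPKM in dKO oocytes, against 1.86, 2.35 and 1.58 FPKM in control oocytes (change 0.87; limma adjusted p = 0.0157). Eed, a subunit of Polycomb repressive complex 2, had 31.9, 33.8 and 27.3 FPKM in dKO oocytes, against 43, 46.5 and 48.3 FPKM in control oocytes (change -0.56; limma adjusted p = 0.0297). Kdm6b, the H3K27 demethylase that activates the locus, had 26.9, 35.5 and 37.7 FPKM in dKO oocytes, against 46.5, 46.6 and 63.2 FPKM in control oocytes (change -0.63; limma adjusted p = 0.0478). The groups did not overlap at Id1, Tbx3, Eed and Kdm6b, all of them called. Of the 11 tested genes, 4 had every dKO library above every control and 4 had every dKO library below. Over all tested genes it was 22.3% and 19.2%. The calls of Tbx3, Eed and Kdm6b were fragile. Tbx3 lost its call without control replicate 1 or 3 (limma adjusted p = 0.0694 and 0.08) and after quantile normalization (0.0781). Eed lost it with the block (0.0522), after quantile normalization (0.0531) and without dKO replicate 1 or any 1 control (up to 0.139). Kdm6b lost it without any 1 library except dKO replicate 3 (up to 0.202) and in 6 other settings (0.053 to 0.0859).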

How the data were processed

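The deposited table holds FPKM, 1 column per library, made by the authors. The submitters' processing notes name TopHat2 2.0.11, Cufflinks 2.0.2 and the build mm9, without roles. Which annotation was counted, whether strand was used and how libraries were scaled is not given in the sources used here. Reads of overlapping genes therefore cannot be told apart: exons of Cdk6, Cdkn1a, Ccnd1 and Ccnd2, and of Rnf2, Ccnh, E2f8, Fen1, Kdm6b, Eed, Tbx3 and Nr2f2, overlap another annotated gene (GENCODE M21). Per the labels' protocols, granulosa cells were pipetted off and the Ovation v2 kit amplified the RNA.

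Of 24525 rows, 497 exact repeats, 1 of them of Cdkn2d, were removed. Genes at 1 FPKM or more in at least 3 libraries were fitted with limma 3.58.1 in R 4.3.3 (lmFit, eBayes with trend, two-sided) on log2(FPKM + 1) without a block, adjusted by the Benjamini-Hochberg method over 11334 genes. The fit was tested on simulated data. Members under the filter were tested in a fit of all genes above 0 in any library. Relative depth is the commonest ratio between libraries of values under 0.2 FPKM of the same gene. FPKM give no counts, so no counting interval is given.

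Per the labels, replicates 1, 2 and 3 of both groups ran on lanes 3, 4 and 6, so the number pairs libraries. Their deviations from the group means correlated at 0.147, 0.107 and 0.0637. The members and lists were chosen with earlier results of these data known. Named genes were all members, Rnf2 and Ring1, up to 3 rises and 3 falls called per list, and the 2 most abundant markers of other cell types and of the oocyte. Alternatives were other pseudocounts, filters, scalings, variance models and thresholds, the block, and removal of each library. Sequences are from RefSeq, build GRCm38.p6, matched by symbol. They were not joined to mm9 coordinates.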

Additional observations from a re-analysis of the deposited data

How the results depend on the processing

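The count of members called higher, 3 with the settings used, was 2 to 4 in the other 19 settings, and the count called lower was 0 in all of them. Cdkn2d was called lower (limma adjusted p = 0.0459) in a setting added later, quantile normalization with no filter. Ccne1 and Cdk6 were called in all 19. Leaving out 1 library at a time gave 2 to 4 called higher. The direction of 1 member turned: Cdkn1b, not called in any setting, had a change of 0.13 without dKO replicate 3 in place of -0.27 (-0.48 to 0.13 on leaving out 1 library). The marker Cd68, likewise never called, turned to -0.20 after quantile normalization and to -0.18 and -0.01 without dKO replicate 1 and control replicate 3 (-0.18 to 0.58 on leaving out 1 library). With the replicate number as a block, Cdkn2a (limma adjusted p = 0.0635), Fen1, Wee2, Eed and Bmp15 (0.0507, 0.0545, 0.0522 and 0.074) lost their calls, and 3 members were again called higher. The block changed no other call among the members, the tested genes named by rule, Mtap and Cyp19a1. For other genes in the text, such as Gadd45a, Ets1 and Dcn, the call with a block is not given. Centring each library on its mean gave a median log2 change of -0.125 over all genes, against -0.019. Over all genes 1587 were called higher and 798 lower, against 655 and 559 with a filter of 5 FPKM, 995 and 181 at a threshold of 0.01, 1981 and 1390 at 0.1, 613 and 359 without dKO replicate 1, 773 and 1288 without dKO replicate 2, 1026 and 741 without dKO replicate 3, and 1092 to 1164 and 215 to 253 without 1 control. Bmp15, the oocyte marker that fell (change -0.62; limma adjusted p = 0.0418), lost its call with no filter (0.104), after quantile normalization (0.257), and without dKO replicate 1 or any 1 control (up to 0.156). Of the alternatives added after seeing the data, quantile normalization and mean centring with no filter moved Cdkn2b to 0.01 and 0.16 and Ccnd1 to 0.11 and 0.39. Removal of single dKO libraries with no filter was also added then, for genes that passed the filter through the dKO group alone. Absolute depth is unknown, which limits Cdkn2a and Cdkn2b most.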
